A study of Mus musculus with 2 samples.

Results

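The 46 genes described here encode core and regulatory proteins of pre-mRNA splicing and were measured in CD4+ T cells of the pancreatic lymph nodes (PLN). They were taken from 19938 genes on the array by symbol alone, namely all genes whose symbol starts with *Srsf*, *Hnrnp*, *Snrp*, *Sf3a* or *Sf3b* and that have a probe set carrying no other gene's symbol. This gave 10 *Srsf*, 17 *Hnrnp*, 10 *Snrp*, 3 *Sf3a* and 6 *Sf3b* genes. The rule uses no expression value, but it was set with earlier results of these data known. *Srsf7* had no named probe set. *Hnrnpa1*, *Hnrnpa3*, *Hnrnph3*, *Snrpf* and *Snrpn* lie only on probe sets shared with other symbols (17 probe sets), so they were not analysed here.

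The arrays came from BDC mice, which are NOD mice whose T cells carry the transgenic receptor of a clone reactive to a β cell antigen. By the labels the mice were 8 weeks old and received 1 mg of Ab, and the number these labels give the BDC line is not that of the paper. One group received the nondepleting anti-CD4 Ab YTS177 (ND αCD4), the other the rat isotype control Ab 2A3, and live CD3+CD4+ T cells were sorted 48 hours later from pooled PLN. With 1 array for either Ab, there is no replicate check and no test, and precision is limited by the number of arrays. In a bulk sample, fewer cells of a kind and less RNA per cell cannot be told apart.

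Introns are removed by the spliceosome, which is built on each transcript from small nuclear ribonucleoproteins (snRNPs). Each snRNP carries a ring of Sm proteins around its RNA, and proteins particular to U1 or U2 let these particles find the start of the intron and its branch point. SR proteins bind exons and mostly promote the use of nearby splice sites, whereas hnRNPs coat the nascent transcript and often silence exons. In T cells these regulators change the isoforms of receptors and signaling proteins upon activation, the classic case being CD45.

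Most of these genes had a slightly lower signal after ND αCD4, and none had a large difference. Of the 46, 41 (89.1%) had a log2 ratio (ND αCD4 minus isotype control) below 0, where 52.7% of all 13222 detected genes did. The median log2 ratio was -0.10, a 1.07-fold lower signal, against -0.01 over all detected genes. All 46 exceeded background in both arrays, where background is the 95th percentile of the probe sets for olfactory or vomeronasal receptors (7.64 on the log2 scale with the isotype control Ab and 7.56 with ND αCD4). The snRNP proteins were lowest as a family, with a median of -0.20 and 10 of 10 below 0, and the hnRNPs were nearest to 0, with a median of -0.07 and 15 of 17 below 0. The medians of the SR proteins, SF3a and SF3b lay between, at -0.10, -0.08 and -0.10.

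The share of genes past a size limit did not exceed that among all detected genes. None of the 46 was 1.5-fold lower or higher, where 1.01% of detected genes were at least 1.5-fold lower and 0.212% at least 1.5-fold higher. At 1.2-fold, 2 genes (4.35%) were lower, *Snrpa* and *Srsf1*, where 5.79% of detected genes were, and none was higher, where 2.85% were. Since 34 of the 46 belong to the top 25% of detected genes by mean signal, the same shares were computed among those 3306 genes. There, 52.8% of genes had a log2 ratio below 0, 5.51% were at least 1.2-fold lower and 2.63% at least 1.2-fold higher, close to the shares over all detected genes.

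These sizes are near the spread of the measurement. Over 550 genes with exactly 2 detected probe sets, the SD of the log2 ratio between probe sets of the same gene was 0.0929, which covers differences between probes and not between mice. Of the 46 genes, 20 (43.5%) lay within this SD of 0, where 53.5% of detected genes did. Another 24 (52.2%) lay below it, where 26.5% of detected genes did, and 2 lay above it, where 2650 of 13222 detected genes did.

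**Figure D1:**
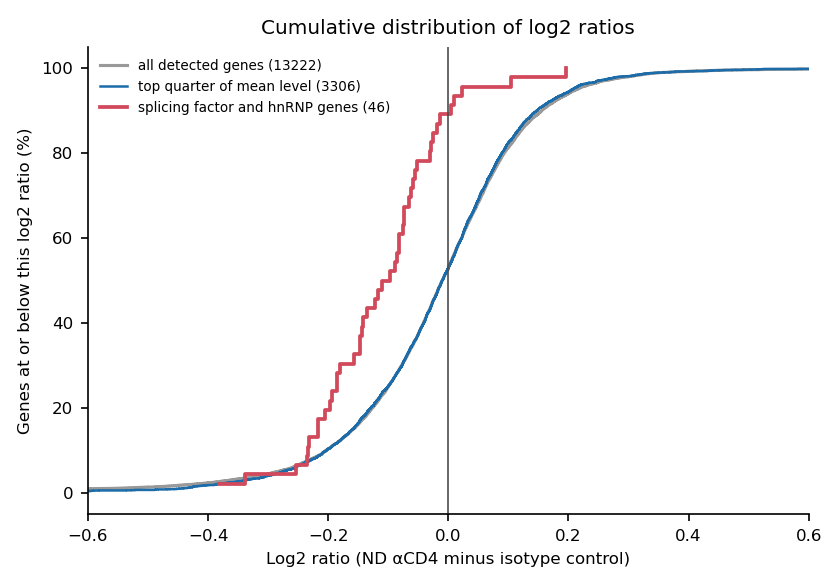
Cumulative percentage of genes (vertical axis) at or below each log2 ratio (horizontal axis, ND αCD4 minus isotype control) for the 46 splicing factor and hnRNP genes, all 13222 detected genes and the 3306 detected genes in the top 25% of mean signal. Of the 46 genes 89.1% lie below a log2 ratio of 0, against 52.7% of all detected genes and 52.8% of those in the top 25%.

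Promoter sequence is shown for *Snrpa* and *Srsf1*, the 2 genes past 1.2-fold, and for *Srsf5*, which had the highest log2 ratio of the 46. *Snrpg* is also shown, though other genes, such as *Snrpa1*, had lower log2 ratios (-0.23 against -0.22). The *Snrpa1* window held no match to the motifs searched. Each run is the 250 bases before an annotated RefSeq start (GRCm38.p6), 5′ to 3′ on the gene's strand, and matches to the motifs listed after the sequences are in capitals. *Snrpa* has 2 annotated starts, and both windows are shown. The first *Snrpa* window and the *Srsf1* window lie inside the annotated span of their gene. The bases before the outer end of the *Srsf1* span were not searched.

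Snrpa, chr7:27195761-27196010, minus strand: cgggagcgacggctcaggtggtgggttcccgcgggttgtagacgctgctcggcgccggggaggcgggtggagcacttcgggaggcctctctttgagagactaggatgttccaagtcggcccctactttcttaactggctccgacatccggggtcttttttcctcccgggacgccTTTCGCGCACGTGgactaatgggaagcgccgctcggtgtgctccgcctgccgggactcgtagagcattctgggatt
Snrpa, chr7:27196272-27196521, minus strand: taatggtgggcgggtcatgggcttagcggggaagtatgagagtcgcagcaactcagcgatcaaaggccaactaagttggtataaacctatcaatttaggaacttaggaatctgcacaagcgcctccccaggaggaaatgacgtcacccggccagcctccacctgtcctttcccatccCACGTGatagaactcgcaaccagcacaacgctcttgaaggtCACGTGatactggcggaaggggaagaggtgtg
Snrpg, chr6:86371290-86371539, plus strand: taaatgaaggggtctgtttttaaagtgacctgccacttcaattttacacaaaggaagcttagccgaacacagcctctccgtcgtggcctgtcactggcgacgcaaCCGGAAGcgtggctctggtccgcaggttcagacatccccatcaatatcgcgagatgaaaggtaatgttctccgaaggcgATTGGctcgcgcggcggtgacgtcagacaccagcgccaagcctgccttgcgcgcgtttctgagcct
Srsf1, chr11:88047123-88047372, plus strand: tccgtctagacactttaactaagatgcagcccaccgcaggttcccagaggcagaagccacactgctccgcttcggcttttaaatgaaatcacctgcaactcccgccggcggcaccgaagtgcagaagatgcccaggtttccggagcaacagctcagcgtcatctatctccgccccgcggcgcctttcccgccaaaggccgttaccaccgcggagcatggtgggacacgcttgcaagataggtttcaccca
Srsf5, chr12:80945249-80945498, plus strand: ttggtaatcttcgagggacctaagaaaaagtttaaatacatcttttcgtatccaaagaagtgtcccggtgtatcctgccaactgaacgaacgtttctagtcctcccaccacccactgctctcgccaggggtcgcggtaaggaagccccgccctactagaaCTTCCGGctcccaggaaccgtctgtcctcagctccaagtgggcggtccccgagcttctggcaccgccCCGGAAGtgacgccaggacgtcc

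The motifs searched, on both strands, were the E-box CACGTG (bound by the Myc family and others), the CCAAT box with these letters, the ETS core CCGGAAG, the NRF1 palindrome, and the E2F sites TTTGGCGC or TTTCGCGC. Windows were found for 40 of the 46 genes, 54 in all, and windows of one gene can overlap. *Snrpa* holds E-boxes in both windows, and in one of them the E-box overlaps an E2F match. *Snrpg* holds an ETS core and a CCAAT box, *Srsf5* holds ETS cores on both strands, and the *Srsf1* window holds none of these letters.

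Over all windows of these genes, the ETS core was found in 18 of 54 (33.3%), against 12.4% of 13165 windows of detected genes and 6.91% of all 32851 windows. The genes holding it come from each family: *Snrpb2*, *Snrpc*, *Snrpg*, *Srsf4*, *Srsf5*, *Srsf11*, *Hnrnpd*, *Hnrnpf*, *Sf3a1*, *Sf3a2*, *Sf3a3*, *Sf3b2*, *Sf3b3* and *Sf3b6*. Their median log2 ratio was -0.09, and that of the 26 genes without it was -0.13. The CCAAT box was found in 42.6% of their windows and 34.2% of those of detected genes, and the E-box in 7.41% and 8.15%. The windows held a median of 19.5 CpG dinucleotides, against 15 in those of detected genes and 6 in all windows. A match is a description of the letters and says nothing on binding in these cells.

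Among the proteins particular to U1 and U2, *Snrpa* had the lowest log2 ratio of all 46 genes. It encodes the A protein of U1, which binds a stem loop of U1 RNA, and its signal was 11.63 with the isotype control Ab and 11.24 with ND αCD4, a 1.30-fold lower level that 2.65% of detected genes fell below. *Snrpc*, whose product, the C protein of U1, helps hold the intron's start, had 10.68 and 10.59, a log2 ratio of -0.09 that lies within the spread between probe sets. The *Snrp* genes of the U2 proteins lay close to each other. *Snrpa1* had 10.67 and 10.44, and *Snrpb2* had 12.12 and 11.94, log2 ratios of -0.23 and -0.18. Of the *Snrp* genes of U1 and U2 proteins, all 4 were therefore lower in the ND αCD4 array, 3 of them by more than the probe set SD. Among all detected genes, 26.5% were lower by more than this SD. *Snrnp70*, which encodes another U1 protein and lies outside the symbol rule, was at 0.05 (11.06 and 11.11).

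The Sm ring genes measured were also all lower. Of these, 5 of 6 were lower by more than the probe set SD, against 26.5% of all detected genes. *Snrpb*, which encodes SmB, had 12.00 with the isotype control Ab and 11.77 with ND αCD4, a 1.18-fold lower level. *Snrpd2* had 11.33 and 11.11, and *Snrpg* had 12.16 and 11.94, both 1.16-fold lower. SmD2 and SmG sit in the same ring, SmD2 paired with SmD1 and SmG joined to SmE and SmF. *Snrpe* had 12.50 and 12.31, a log2 ratio of -0.19, and *Snrpd3*, whose product pairs with SmB, had 12.92 and 12.80, a log2 ratio of -0.12. *Snrpd1*, the partner of *Snrpd2*, was the one Sm gene near 0, with 10.68 and 10.66 and a log2 ratio of -0.03.

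The SF3a and SF3b complexes belong to the U2 snRNP and hold the branch point. *Sf3a3* was the lowest of the 9 genes, with 11.42 with the isotype control Ab and 11.21 with ND αCD4, 1.15-fold lower. *Sf3a1* and *Sf3a2*, the other subunits of SF3a, had log2 ratios of -0.08 and -0.05, both within the probe set SD. In SF3b, *Sf3b3*, a scaffold subunit, had 12.39 and 12.24 with a log2 ratio of -0.16. *Sf3b1*, the large subunit that clamps the branch point helix, had 12.70 and 12.61 with a log2 ratio of -0.09. *Sf3b6*, which contacts the branch point adenosine, was at -0.11, *Sf3b2* at -0.06 and the small subunit *Sf3b5* at 0.01. *Sf3b4* was at -0.15 in the probe set used (9.55 and 9.40) but 0.23 in its other one (8.26 and 8.49), so its direction is uncertain.

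**Figure D2:**
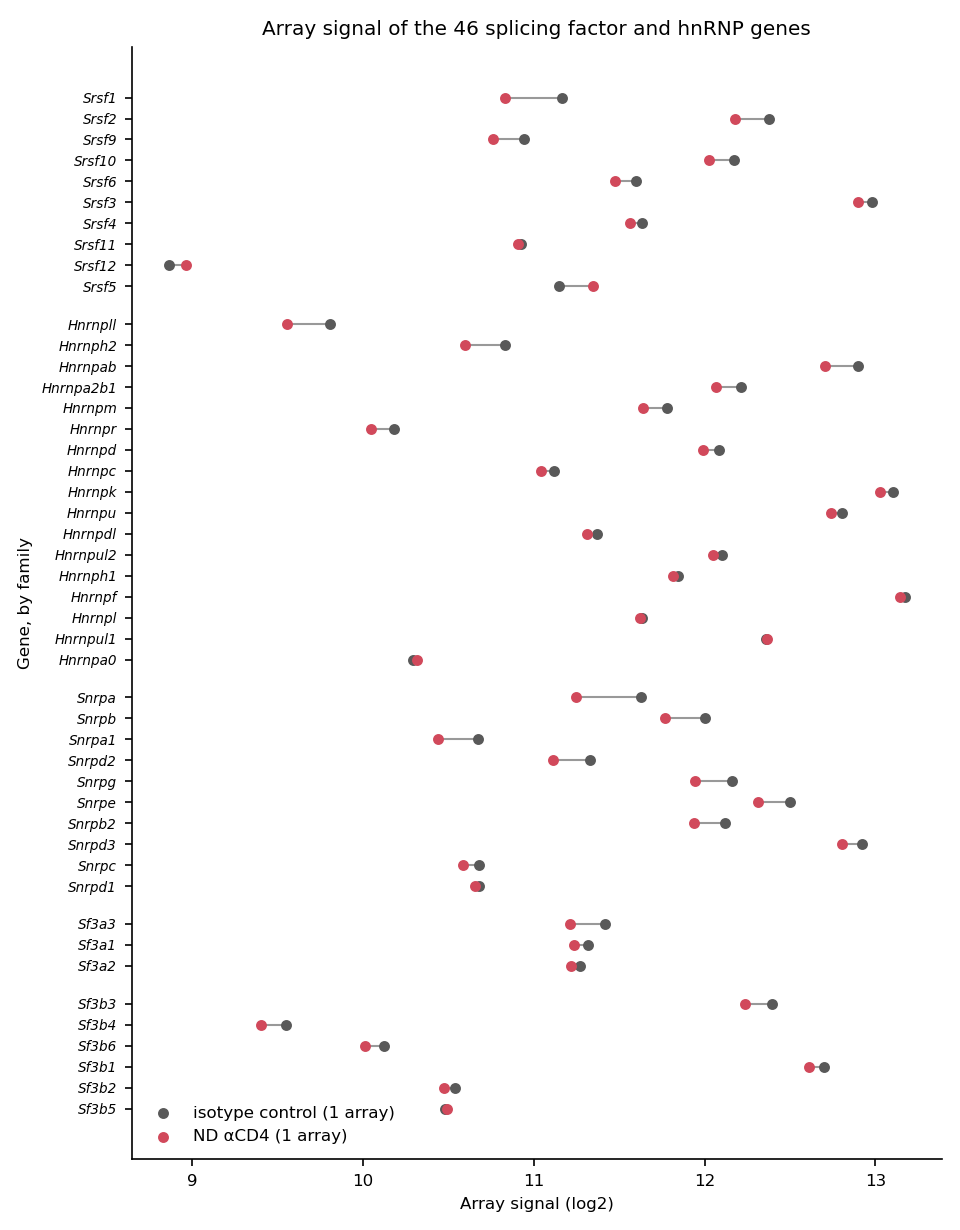
Array signal on the log2 scale (horizontal axis) of each of the 46 genes (vertical axis, by family and then by log2 ratio) with the isotype control Ab (gray) or ND αCD4 (red), joined by a line, from 1 array per Ab. The joined points lie close together, *Snrpa* being furthest apart (11.63 and 11.24), and positions of different genes cannot be compared, since their probes differ.

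The SR proteins held both the second lowest and the highest log2 ratio of the 46 genes. *Srsf1* (ASF/SF2), the founding SR protein, had 11.17 with the isotype control Ab and 10.83 with ND αCD4, 1.26-fold lower, and 3.52% of detected genes fell below it. *Srsf2* (SC35) had 12.38 and 12.18, 1.15-fold lower. *Srsf9* had 10.95 and 10.76, 1.14-fold lower. These 3 genes and *Srsf10* (12.17 and 12.03, a log2 ratio of -0.15) and *Srsf6* (11.60 and 11.48, -0.12) were lower by more than the probe set SD. They are 5 of the 10 SR genes, against 26.5% of all detected genes.

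Other SR genes went the other way or stayed near 0. *Srsf5* had 11.15 with the isotype control Ab and 11.34 with ND αCD4, 1.15-fold higher, and 93.6% of detected genes had a lower log2 ratio. Its other probe set gave 0.17, so both were above 0. *Srsf12*, a splicing repressor, had a weak signal of 8.86 and 8.97, a log2 ratio of 0.10. *Srsf4* was at -0.07 and *Srsf11* at -0.02. *Srsf3*, the smallest SR protein, was at -0.08 in the probe set used (12.98 and 12.90), -0.05 in another and 0.21 in the dimmest (9.35 and 9.56), so its direction is uncertain too.

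Of the hnRNP genes, *Hnrnpll* was the lowest. Its product represses the variable exons of CD45 in activated T cells, and its signal was 9.81 with the isotype control Ab and 9.55 with ND αCD4, 1.19-fold lower. *Hnrnpl*, its paralog, which also acts on CD45 exons, had 11.63 and 11.62, a log2 ratio of -0.01. The same contrast was seen in the H group, where *Hnrnph2* had 10.83 and 10.60, 1.18-fold lower, and *Hnrnph1* had 11.84 and 11.81, a log2 ratio of -0.03. In both pairs the log2 ratios of the probe sets used were further apart than the probe set SD, which describes a single log2 ratio and not a difference. The other probe set of *Hnrnph2* was at -0.16, nearer to *Hnrnph1*. Which of these probe sets matches *Hnrnph2* itself and not a copy was not analysed here.

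*Hnrnpab*, *Hnrnpa2b1*, *Hnrnpm*, *Hnrnpr* and *Hnrnpd* followed, at log2 ratios of -0.19, -0.14, -0.14, -0.14 and -0.10. *Hnrnpab* had 12.90 with the isotype control Ab and 12.70 with ND αCD4. *Hnrnpa2b1*, which encodes an abundant binder of nuclear RNA that also sorts RNA into exosomes, had 12.21 and 12.07. With *Hnrnpll* and *Hnrnph2* these are the 7 hnRNP genes (41.2%) lower by more than the probe set SD, where 26.5% of all detected genes were. The other 10 (58.8%) lay within it, close to the 53.5% of all detected genes that did. Among these 10 were *Hnrnpc* (-0.07), *Hnrnpk* (-0.07), the nuclear matrix protein *Hnrnpu* (-0.07), *Hnrnpdl* (-0.06), *Hnrnpul2* (-0.05) and *Hnrnpf* (-0.03). *Hnrnpul1* at 0.00 and *Hnrnpa0* at 0.02 were the only hnRNP genes with a log2 ratio above 0.

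**Figure D3:**
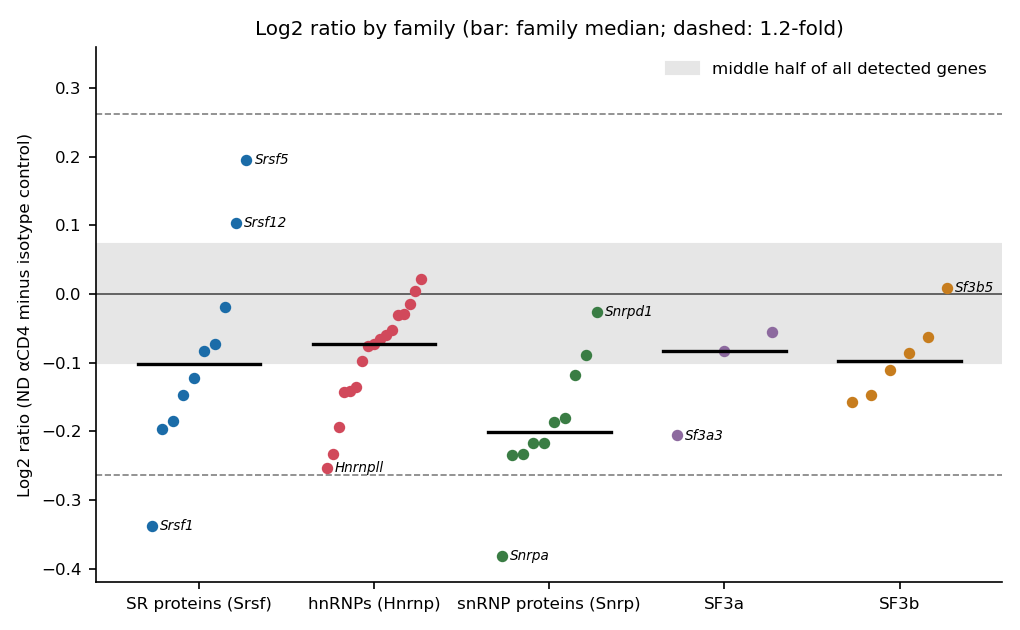
Log2 ratio (vertical axis, ND αCD4 minus isotype control) of each gene by family (horizontal axis), 1 point per gene, with the family median as a bar, the interquartile range of all detected genes as a gray band (-0.10 to 0.07) and 1.2-fold as dashed lines. The snRNP proteins have their median at -0.20, below the band, and *Snrpa* and *Srsf1* lie past 1.2-fold.

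Of the 46 genes, 10 have more than 1 probe set, with 28 probe sets between them. In 8 of these 10 the probe sets gave the same sign. The 4 probe sets of *Hnrnpf* were all at -0.03, the 5 of *Snrpd2* between -0.22 and -0.09, and the 3 of *Hnrnpk* between -0.10 and -0.06. *Snrpg* was lower in its other probe set, at -0.35. The exceptions are *Srsf3* and *Sf3b4*, described above. Both are counted among the 41 genes below 0 by the probe set used, and 39 were below 0 with the mean of probe sets. Several of these genes have processed pseudogenes, and which copy each probe set matches was not analysed here. The probe set used may therefore match a copy, and probe sets that agree need not be independent measures of the gene.

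**Figure D4:**
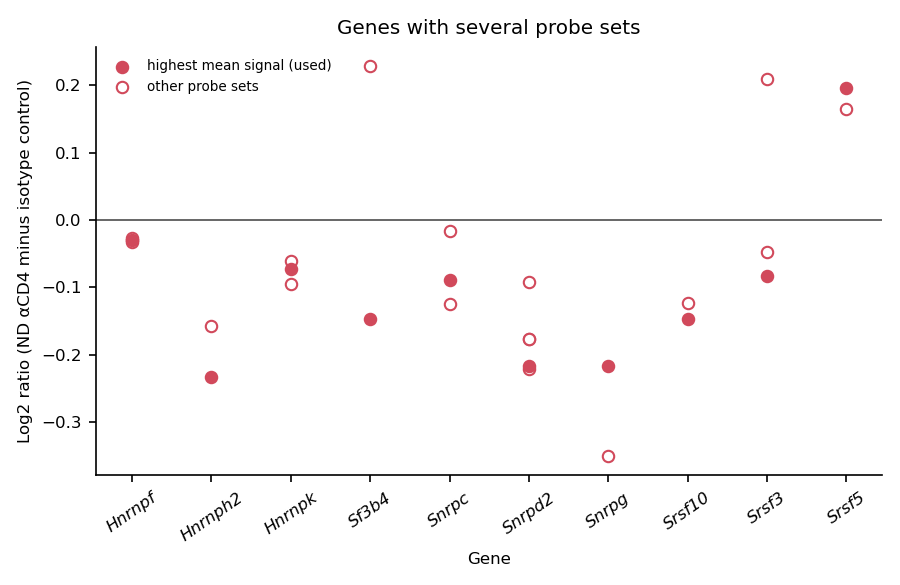
Log2 ratio (vertical axis, ND αCD4 minus isotype control) of every probe set of the 10 genes with more than 1 (horizontal axis), the probe set used being filled and the others open. The probe sets of *Hnrnpf* coincide at -0.03, while those of *Sf3b4* (-0.15 and 0.23) and *Srsf3* (-0.08 to 0.21) lie on both sides of 0.

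Other genes of splicing, from 9 lists drawn up by role, were lower less evenly. Counting each gene once and leaving out the 46, 136 of 194 detected genes had a log2 ratio below 0, with a median of -0.06. Of these 194, 9 were at least 1.2-fold lower and 1 higher. Among all detected genes 5.79% were at least 1.2-fold lower and 2.85% higher, and neither count exceeded that share. The snRNP assembly list was the lowest, with a median of -0.13 and 15 of 18 below 0. *Wdr77* (11.25 with the isotype control Ab and 10.87 with ND αCD4) and *Prmt5* (11.95 and 11.66), which together methylate Sm proteins before they are loaded on RNA, had log2 ratios of -0.38 and -0.30. In the list of exon junction, surveillance and mRNA export proteins, 13 of 16 were below 0 with a median of -0.11. *Alyref*, an export adaptor, was lowest at -0.43 (12.29 and 11.86), followed by the exon junction protein *Rbm8a* at -0.30.

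The remaining lists of spliceosome parts had smaller medians. Of 26 Prp19 complex and catalytic-step proteins, 22 were below 0 with a median of -0.09, the cyclophilin *Cwc27* being lowest at -0.27 and *Syf2* highest at 0.17. Of 31 other proteins of U1, the U4/U6.U5 tri-snRNP and the minor spliceosome, 24 were below 0 with a median of -0.08, from *Ppih* at -0.31 to *Prpf39* at 0.14. Of 14 LSm proteins, relatives of the Sm proteins, 10 were below 0 with a median of -0.06, from *Lsm2* at -0.36 to *Lsm1* at 0.07. In the branch point and 3′ splice site list, 11 of 16 were below 0 with a median of -0.05, and the subunits of U2AF had different signs, *U2af1* at -0.26 and *U2af2* at 0.05.

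The regulators divided. Of 41 other RNA-binding regulators, 26 were below 0 with a median of -0.06, from *Ilf2* at -0.39 to *Pcbp4* at 0.23. Of 23 SR-related coactivators, 14 were below 0 with a median of -0.02, from *Rnps1* at -0.24 to *Scaf1* at 0.13. The kinases that phosphorylate SR proteins and the importin that carries them were the one list with a median above 0, at 0.09 with 8 of 9 above 0. *Clk1*, a nuclear kinase of SR proteins, had 11.90 with the isotype control Ab and 12.25 with ND αCD4, 1.27-fold higher, and *Clk4* had 11.16 and 11.31 with a log2 ratio of 0.15. *Tnpo3*, the importin, was at -0.04.

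**Figure D5:**
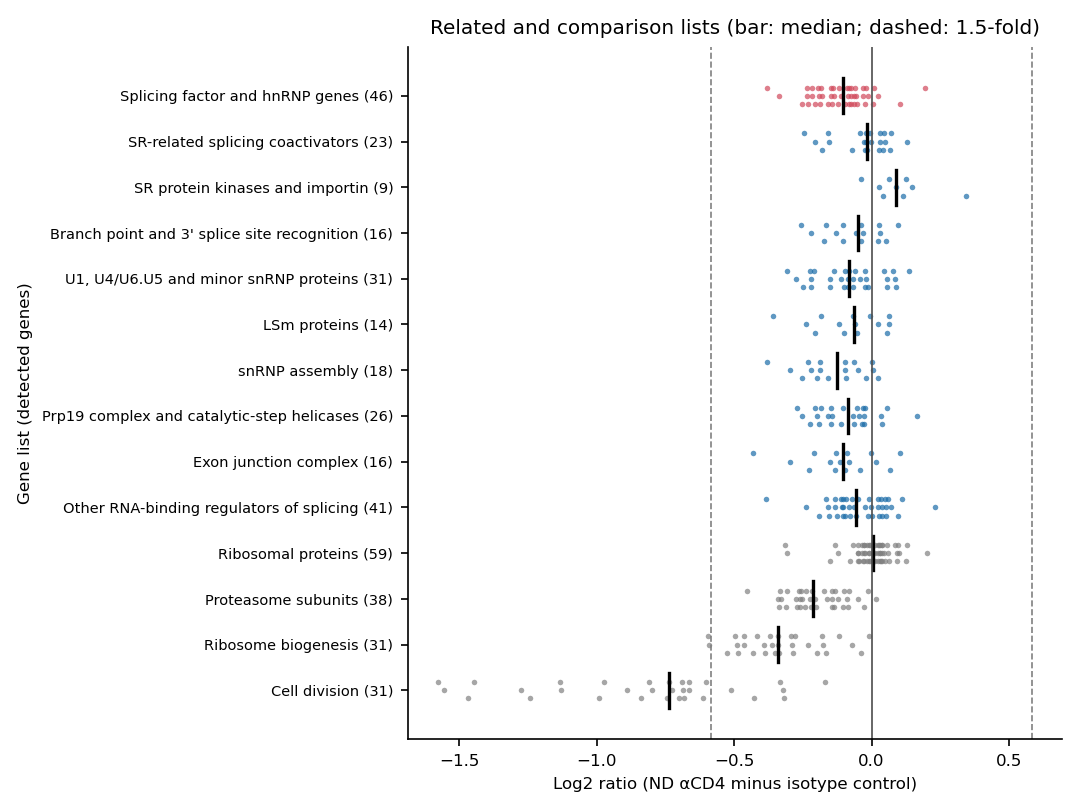
Detected genes of each list (vertical axis, their number in brackets) by log2 ratio (horizontal axis, ND αCD4 minus isotype control), with the list median as a bar and 1.5-fold as dashed lines. The splicing factor and hnRNP genes (red) have a median of -0.10, the 9 related splicing lists (blue) run from -0.13 to 0.09, and the comparison lists (gray) run from 0.01 for ribosomal proteins to -0.74 for cell division.

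Beside other housekeeping machinery, the splicing genes lay between the ribosomal proteins and the proteasome. Of 59 detected genes of ribosomal proteins and their paralogs, 28 were below 0, with a median of 0.01. Of 38 proteasome subunits, 37 were below 0 and 10 were at least 1.2-fold lower, with a median of -0.21, near that of the snRNP proteins. Of 31 ribosome biogenesis genes, all were below 0, 22 were at least 1.2-fold lower and 2 at least 1.5-fold lower, with a median of -0.34. Among all detected genes, 52.7% were below 0, 5.79% at least 1.2-fold lower and 1.01% at least 1.5-fold lower. These are descriptions of the same 2 arrays, and no difference between the lists was tested.

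Cell division genes were also lower, and by more than the splicing genes. Of 31 detected genes of that list, all had a log2 ratio below 0 and 25 were at least 1.5-fold lower, with a median of -0.74. The summed linear signal of the 33 measured genes was 38154 with the isotype control Ab and 23240 with ND αCD4. Here and below, summed signals cover all measured genes of a list, detected or not. Whether cycling cells contribute to the lower splicing gene signals was not tested. T cell genes differed little, 11 of 11 being detected with log2 ratios from -0.14 (*Zap70*) to 0.13 (*Thy1*) and summed linear signals of 86041 and 86964. Both CD8 T cell markers were higher, with summed linear signals of 3478 and 4984. *Cd8a* had 9.67 and 10.39, and *Cd8b1* had 11.38 and 11.83. Of the B cell markers 5 of 5 were detected, with summed signals of 2242 and 2419 and the brightest, *Cd79b*, at 10.34 and 10.44. Of 6 natural killer markers 2 were detected, and the summed signals of all 6 were 3817 and 3401. *Eomes*, which T cells also express, was the brightest, at 11.72 and 11.41, and the only one of the 6 that was lower. *Klrd1* had 7.34 and 8.19, above background only with ND αCD4. *Ncr1*, *Klrk1*, *Klrb1c* and *Klre1* exceeded background in neither array, with log2 ratios of 0.74, 0.50, 0.10 and 0.04. Of 6 macrophage markers 3 were detected, and the summed signals of all 6 were 1411 and 1534. *Cd68* had 9.17 and 9.40 and *Lyz2* had 8.02 and 8.13, *Itgam* exceeded background only with ND αCD4 (7.61 and 7.57), and *Adgre1*, *Csf1r* and *Cd14* exceeded it in neither array. Of 6 dendritic cell markers 2 were detected (summed signals of 1067 and 1050), of 6 granulocyte markers 4 (1285 and 1261), of 6 stromal and endothelial markers 6 (5631 and 5805) and of 4 exocrine pancreas markers 3 (891 and 915). The 1 red blood cell marker measured, *Alas2*, had 7.46 and 7.74, above background only with ND αCD4. The part of these cells in the results was not tested.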

How the data were processed

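RNA of sorted PLN CD4+ T cells was hybridized to 2 Affymetrix mouse gene ST arrays. The authors deposited log2 signals of 35557 probe sets per array. Affymetrix Expression Console is named in the submitters' processing notes. How signals were summarized and normalized was not given in the sources used here. Log2 was inferred from the values (2.52 to 14.7, with medians of 8.15 and 8.15). The paper names a later array version than the platform annotation of the deposited probe sets.

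Probe sets with 1 gene symbol (21789) were used, and those with several (1621) or none (12147) were left out. For each gene the probe set with the highest mean was kept, and detection required a signal in 1 or both arrays beyond the 95th percentile of the 1210 probe sets for olfactory or vomeronasal receptors. All 46 symbols matched RefSeq (GRCm38.p6) by gene identifier, and 0 changed. Log2 ratios are ND αCD4 minus isotype control, and size limits were 1.5-fold and 1.2-fold. No test was run. The members and lists were chosen with earlier results of these data known. The lists hold genes of known role (the kinase gene *Rps6kl1*, caught by the symbol pattern for ribosomal proteins, was removed after its value was seen), and the text names members at least 1.2-fold apart, the lowest and highest of each family, those with several probe sets, those of known T cell biology, and the extremes of each list. A few more members are named to account for their family.

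Motifs were searched in the 250 bases before RefSeq starts, and the planned protein features were not analysed here. The calculations recovered known differences on simulated data. The alternatives were centring on the median, averaging probe sets, quantile normalization, lowess (3 iterations, fraction 0.3), detection in both arrays, no filter, and a floor at background. A gene's value was counted as moved beyond 0.0929, the SD between probe sets, and a median beyond this SD over the root of its gene number. Lowess came from statsmodels 0.14.6, tables from pandas 2.3.3 and numpy 2.4.6, and plots from matplotlib 3.10.9, in Python 3.11.15.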

Additional observations from a re-analysis of the deposited data

How the results depend on the processing

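The sign of each family median and of the median of all 46 genes was the same under all 7 alternatives. Quantile normalization moved the median of the 46 genes to -0.0801 and that of the hnRNPs to -0.0469, and the median over all detected genes was then 0.00. Under the alternatives, 38 to 41 of the 46 genes had a log2 ratio below 0, 2 to 3 were at least 1.2-fold lower, and none was 1.5-fold lower, 1.5-fold higher or 1.2-fold higher. With the mean of probe sets, *Sf3b4* turned to 0.0407 and *Srsf3* to 0.026, since their probe sets disagree. *Hnrnpl*, *Hnrnpf* and *Srsf11*, all within 0.03 of 0, also changed sign under quantile normalization, *Hnrnpl* under lowess too. No paired analysis was possible because each condition has 1 array. Differences of the size seen here could not be told from the spread between mice, which 1 pool per condition does not measure.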
